A study of Mus musculus with 22 samples.

Results

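The collagen hydroxylases and folding factors modify and fold collagen chains before secretion. The set described here held 10 genes, chosen by exact gene symbol: P4ha1, P4ha2, P4ha3, P4hb, Plod1, Plod2, Plod3, Serpinh1, Crtap and Ppib. All 10 were found among the 34866 genes listed for the cultures and the 23911 genes listed for the cartilage tissue. The series compared mouse cartilage cells with and without Dnmt1, the enzyme that copies DNA methylation to the new strand after replication, in 22 samples. Control cultures carried the genotype Dnmt1 flox, in which the gene is flanked by loxP sites, and cKO cultures carried Prrx1-Cre;Dnmt1 flox/flox. Prrx1-Cre is active in limb bud mesenchyme, from which chondrocytes and other connective tissue cells of the limb derive. Primary chondrocytes from knee cartilage of mice at postnatal day 3 to 5 were sampled untreated (day 0, 3 control and 3 cKO samples) or after 3 days of the growth factor BMP2 at 100 ng/µl as the labels give it (day 3, 4 control and 4 cKO samples). Cartilage of mice at postnatal day 5, labelled flox (control) or cKO and treated with collagenase to remove connective tissue, gave 4 control and 4 cKO samples. In each tissue genotype replicates 1 and 2 were male and replicates 3 and 4 female.

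Collagen chains are modified in the endoplasmic reticulum (ER) while they are made. Prolyl 4-hydroxylase, a tetramer of alpha subunits (P4ha1, P4ha2 or P4ha3) and P4hb, hydroxylates prolines and so makes the triple helix stable at body temperature. Lysyl hydroxylases (Plod1, Plod2 and Plod3) prepare lysines for crosslinks and sugar attachment. Crtap and Ppib (cyclophilin B) form a prolyl 3-hydroxylation and folding complex with P3h1, and Serpinh1 (Hsp47) is a chaperone that binds folded procollagen. Loss of CRTAP, PPIB, SERPINH1 or P3H1 causes brittle bone disease in humans, and cartilage is among the tissues that make most collagen.

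The 5′ flanking sequences of 4 members are shown first, because their genotype effects lay farthest apart after 3 days of BMP2. P4ha2 and P4ha3 were then higher in cKO than in control cultures, and Serpinh1 and Crtap were lower by the most. Each is the stretch of 250 bases before the RefSeq start on the build GRCm38.p6, 5′ to 3′ on the gene's strand. Capitals mark CpG dinucleotides, the sites that Dnmt1 methylates. The windows are chr11:54100674-54100923 (plus strand) for P4ha2, chr7:100285270-100285519 (plus strand) for P4ha3, chr7:99353240-99353489 (minus strand) for Serpinh1 and chr9:114390713-114390962 (minus strand) for Crtap. The P4ha2 window precedes the RefSeq start but lies inside the GENCODE M21 gene model, which begins farther upstream, while the other 3 windows lie upstream of their gene models.
P4ha2: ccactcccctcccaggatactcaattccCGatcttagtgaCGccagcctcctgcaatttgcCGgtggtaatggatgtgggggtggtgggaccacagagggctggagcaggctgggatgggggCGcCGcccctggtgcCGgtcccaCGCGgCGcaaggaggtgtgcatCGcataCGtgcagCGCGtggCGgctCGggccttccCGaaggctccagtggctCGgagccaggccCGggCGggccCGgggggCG
P4ha3: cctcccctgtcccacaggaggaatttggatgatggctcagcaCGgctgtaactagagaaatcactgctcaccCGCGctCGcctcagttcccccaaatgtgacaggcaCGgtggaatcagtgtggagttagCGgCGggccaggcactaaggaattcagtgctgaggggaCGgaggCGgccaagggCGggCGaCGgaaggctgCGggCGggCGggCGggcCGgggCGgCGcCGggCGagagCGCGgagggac
Serpinh1: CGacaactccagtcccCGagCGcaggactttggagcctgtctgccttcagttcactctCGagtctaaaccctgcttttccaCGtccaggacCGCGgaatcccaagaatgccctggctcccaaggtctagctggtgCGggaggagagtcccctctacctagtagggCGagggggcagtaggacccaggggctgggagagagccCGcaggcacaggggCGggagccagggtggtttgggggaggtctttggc
Crtap: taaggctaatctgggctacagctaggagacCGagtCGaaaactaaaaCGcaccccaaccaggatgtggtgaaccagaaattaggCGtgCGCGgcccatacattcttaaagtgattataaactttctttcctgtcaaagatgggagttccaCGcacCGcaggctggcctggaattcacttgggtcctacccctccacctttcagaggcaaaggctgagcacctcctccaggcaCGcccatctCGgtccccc

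P4ha2 held 21 CpGs, P4ha3 23, Serpinh1 11 and Crtap 10. The other members that were lower in cKO cultures at day 3 varied: P4hb and Ppib held 25 each, P4ha1 24 and Plod1 16. A relation between CpG count and direction was not tested. The median over 32851 such windows was 6 CpGs. At least as many CpGs as in P4ha3 were present in 13.3% of all windows, and at least as many as in Crtap in 37.8%. Across the 9 members with a window (all but Plod2) the count ran from 10 to 25. The core of the hypoxia response element was searched in its forms ACGTG and GCGTG, on both strands. Both forms contain a CpG. ACGTG was present in 6 of the 9 members and 16.6% of all windows, and GCGTG in 7 of the 9 and 28.2% of all windows. All windows were not matched to the members for CpG count, so an enrichment cannot be read from these shares. P4ha2 had 1 ACGTG and 2 GCGTG, and P4ha3 had none of either. A match is a string of letters and not a measured binding site, and no methylation value was used here.

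The day 0 samples held 41749327 to 51741478 counts each, the day 3 samples 14434197 to 18918714 and the cartilage samples 1100198 to 1888896. Dnmt1 transcript was lower in each cKO sample than in each control sample of its setting, with log2 fold changes of −2.44, −1.41 and −1.66 at day 0, at day 3 and in cartilage. In the second cartilage table, of estimated counts, the Dnmt1 difference was smaller: 52.9 ± 7.60 CPM in control and 30.6 ± 3.30 CPM in cKO samples, against 42.5 ± 6.18 and 13.2 ± 1.09 CPM in the whole-number table (SD, n = 4 each). One library stood apart: replicate 4 of the cKO cultures at day 3, whose chi-square per degree of freedom against its group was 123.9 to 138.4, against 7.42 to 10.9 among the other cKO pairs. All 4 cartilage controls were in library pool 1 and all 4 cKO cartilage samples in pool 2, so pool and genotype cannot be told apart there. The 8 chondrocyte markers (Col2a1, Acan, Sox9, Matn1, Col9a1, Hapln1, Comp and Snorc) were detected in every group. Their summed level was 127086 to 134483 CPM (counts scaled to library size) in untreated controls and 47490 to 57652 CPM in untreated cKO samples. After BMP2 the controls had 81678 to 100590 CPM and the cKO samples 1114 to 15437 CPM, and in cartilage the ranges were 60570 to 91883 and 27234 to 57446 CPM. The 6 skeletal muscle markers went the other way: 6.04 to 7.41 against 35.9 to 41.2 CPM at day 0, 0.330 to 0.960 against 43.3 to 773.7 CPM at day 3, and, for the 4 listed in cartilage, 6.83 to 10.1 against 42.8 to 77.2 CPM. Cartilage of cKO mice was lower without overlap in the osteoclast markers (126.1 to 456.1 against 58.8 to 117.7 CPM), the leukocyte markers (18.8 to 36.6 against 6.89 to 16.9 CPM) and, by a small gap, the hypertrophic chondrocyte markers (577.6 to 1181 against 74.9 to 576.4 CPM). In the estimated counts the leukocyte ranges overlapped (25.5 to 39.8 against 14.7 to 34.0 CPM), and the osteoclast and hypertrophic ranges did not. In cultures the hypertrophic markers were lower in cKO samples at day 0 (1303 to 1342 against 684.9 to 799.5 CPM) and higher at day 3 (215.2 to 447.8 against 643.3 to 2482 CPM). Myod1 was at 0 in all day 0 controls and Actc1 in all day 3 controls. Day 3 cKO cultures were also higher in the 5 osteoblast markers (44.0 to 77.0 against 151.6 to 387.6 CPM) and the 4 adipocyte markers (1.36 to 2.81 against 26.5 to 39.7 CPM, with Adipoq and Cidec at 0 in all controls). The part of these shifts in the results below was not tested, and fewer cells of a type and less RNA per cell cannot be told apart in bulk samples.

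In untreated control chondrocytes the members spanned a wide range of levels. On the scale of CPM per kb of exon, Serpinh1 was highest at 2089 ± 17.1 (SD, n = 3) and P4hb followed at 730.9 ± 9.45. Plod2 (164.2 ± 1.41) and P4ha1 (163.7 ± 0.959) came next, and their samples overlapped. Below them were Ppib (113.5 ± 1.77), Crtap (103.3 ± 0.869), Plod3 (78.4 ± 0.359), P4ha2 (53.7 ± 1.80), Plod1 (30.5 ± 0.383) and P4ha3 (18.7 ± 0.751). Apart from Plod2 and P4ha1, the samples of neighbours in this order did not overlap. The order depends on the length used, which was that of all annotated exons of a gene joined. The chaperone and the shared P4hb subunit, which is also the general protein disulfide isomerase, thus had the most transcript per length. Ppib shares 825 bp of its exons with Snx22 on the other strand and Plod3 shares 529 bp with Znhit1 on the other strand. Whether the counting used strand is not given in the sources used here, so the levels of these genes are uncertain to that extent.

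**Figure D1:**
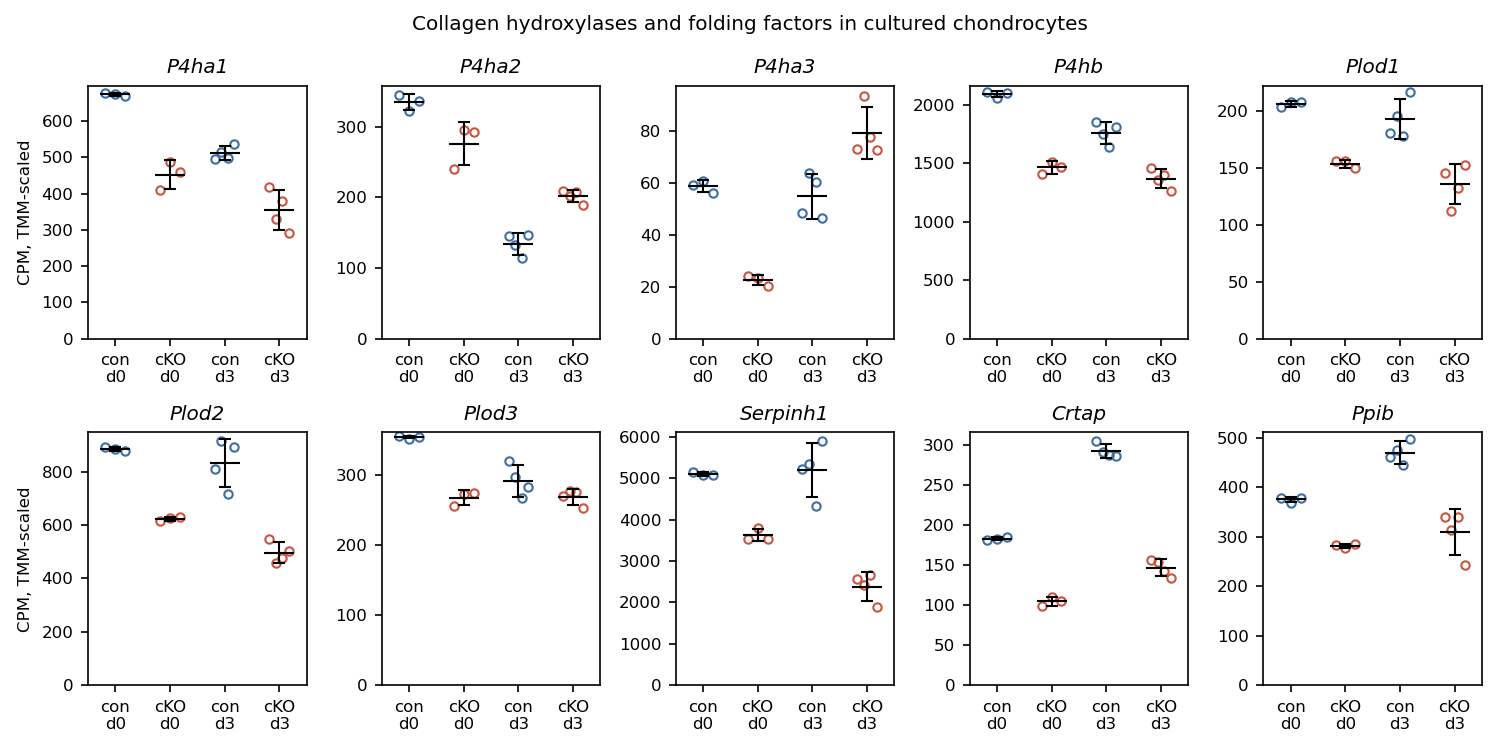
CPM of the 10 members in the 14 culture samples, by group (con, control; d0, day 0; d3, day 3). Each circle is a sample, and the black bars are the mean ± SD; all panels start at 0. In the P4ha2 and P4ha3 panels the cKO samples lie below the controls at day 0 and above them at day 3, while for Serpinh1 and Crtap they lie below on both days.

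The first comparison asked how the members differed between genotypes before treatment. All 10 fell in cKO cultures at day 0, with log2 fold changes (cKO over control) from −1.38 for P4ha3 to −0.28 for P4ha2 and a median of −0.50. Across all 15530 genes tested the median was 0.0096, and 31.6% were called lower and 33% higher (adjusted p under 0.05), 64.5% in either direction. The control and cKO samples of all 10 members did not overlap, as was the case for 70.4% of all genes tested.

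Among the prolyl 4-hydroxylase alpha subunits P4ha3 fell most. P4ha3 (ENSMUSG00000051048.17, chr7:100285520-100319699) had 59.2, 60.8 and 56.1 CPM in the 3 controls, replicates in order as throughout, and 24.1, 23.3 and 20.4 CPM in the 3 cKO samples. Every cKO sample was below the lowest control sample (log2 fold change −1.38, SE 0.0668, adjusted p 3.19e-07). P4ha1 (ENSMUSG00000019916.14, chr10:59323296-59373304), the main alpha subunit in most tissues, had 676.3, 675.5 and 669.1 CPM in control and 409.6, 488.4 and 459.4 CPM in cKO samples. This was a log2 fold change of −0.58 (SE 0.0588, adjusted p 2.61e-05). P4ha2 (ENSMUSG00000018906.14, chr11:54100095-54131665), an alpha subunit known from chondrocytes, had 345.2, 323.0 and 337.2 CPM in control and 240.9, 295.1 and 292.1 CPM in cKO samples. Its fold change was the smallest of the 10 members (−0.28, SE 0.0708, adjusted p 0.00650). Their partner P4hb (ENSMUSG00000025130.11, chr11:120560298-120573253) had 2112, 2060.4 and 2101 CPM in control and 1409, 1513 and 1469 CPM in cKO samples (−0.52, SE 0.0486, adjusted p 1.55e-05).

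The lysyl hydroxylases fell by similar amounts. Plod2 (ENSMUSG00000032374.14, chr9:92542223-92608428), which hydroxylates the telopeptide lysines used in crosslinks, had 893.1, 884.7 and 878.0 CPM in control and 615.4, 628.0 and 628.7 CPM in cKO samples (−0.51, SE 0.0350, adjusted p 2.29e-06). Plod1 (ENSMUSG00000019055.15, chr4:147909753-147936767), which acts on the helix, fell by 0.43 on the log2 scale, and Plod3 (ENSMUSG00000004846.10, chr5:136987019-136996648), which also transfers sugars to hydroxylysine, fell by 0.41. Crtap (ENSMUSG00000032431.6, chr9:114375134-114390675) had the second largest fall of the set. Its levels were 181.6, 182.8 and 184.6 CPM in control and 99.2, 110.3 and 104.6 CPM in cKO samples (log2 fold change −0.81, SE 0.0391, adjusted p 3.17e-07). Its partner Ppib (ENSMUSG00000032383.7, chr9:66060222-66066623), a prolyl isomerase, fell by 0.42. Serpinh1 (ENSMUSG00000070436.12, chr7:99345376-99353239) had 5151, 5079 and 5079 CPM in control and 3542, 3795 and 3536 CPM in cKO samples (−0.50, SE 0.0638, adjusted p 1.16e-04).

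The second comparison was that of the genotypes after 3 days of BMP2. Of the 10 members 7 fell and 2 rose in cKO cultures, and Plod3 was not called. Background calls were 48.1% of 13924 genes in either direction, 22.6% lower and 25.5% higher. The groups did not overlap for 9 of the 10 members, against 47.9% of all genes tested, and the members' median was −0.50, against 0.011 over all genes. These 9 calls were also made without cKO replicate 4.

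Serpinh1 and Crtap fell most. Serpinh1 had 5219, 5339, 4329 and 5909 CPM in the 4 controls and 2574, 2419, 2652 and 1879 CPM in the 4 cKO samples, a log2 fold change of −1.11 (SE 0.155, adjusted p 5.95e-04). Its lowest value was in cKO replicate 4, and the log2 fold change without that library was −1.03 (adjusted p 1.31e-04). Crtap had 305.4, 291.7, 287.4 and 286.1 CPM in control and 156.5, 154.4, 142.0 and 134.1 CPM in cKO samples (−0.98, SE 0.0691, adjusted p 2.25e-05). The genotypes overlapped for neither gene. Ppib fell from 469.8 ± 22.5 to 309.5 ± 45.8 CPM (SD, n = 4 each; −0.59, adjusted p 0.00260). Plod2 had 809.0, 916.9, 718.2 and 891.9 CPM in control and 547.9, 457.6, 476.6 and 503.6 CPM in cKO samples (−0.73, SE 0.108, adjusted p 8.02e-04). Plod1 fell by 0.49, P4ha1 by 0.51 and P4hb by 0.35 on the log2 scale. For P4hb the call rested on the unblocked fit (adjusted p 0.0143, and 0.0875 with the replicate number as a block). Plod3 had 291.9 ± 22.6 CPM in control and 269.3 ± 11.4 CPM in cKO cultures (SD, n = 4 each; −0.10, SE 0.0750, adjusted p 0.298), and its samples overlapped.

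Both minor alpha subunits of prolyl 4-hydroxylase went the other way. P4ha2 had 145.3, 132.0, 113.6 and 146.5 CPM in control and 208.7, 202.3, 207.6 and 189.2 CPM in cKO samples (log2 fold change 0.60, SE 0.0893, adjusted p 8.03e-04). P4ha3 had 48.5, 64.0, 60.3 and 46.6 CPM in control and 73.0, 93.7, 77.5 and 72.6 CPM in cKO samples (0.54, SE 0.126, adjusted p 0.00735). For both genes every cKO sample was above every control sample, whereas at day 0 every cKO sample was below.

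**Figure D2:**
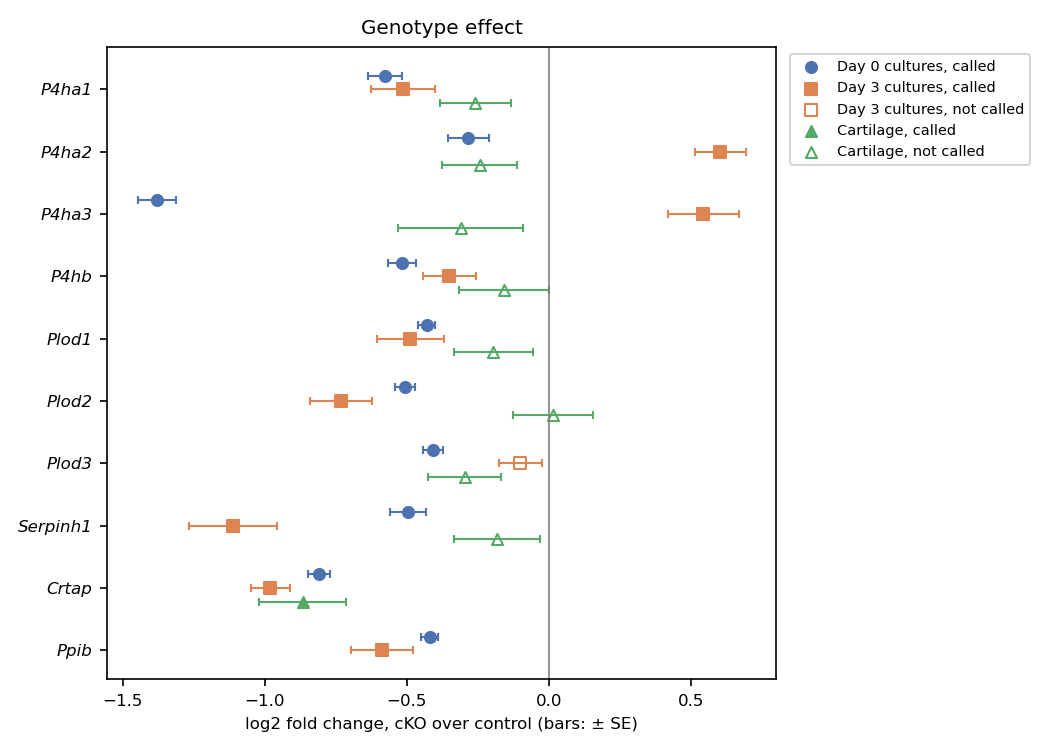
Log2 fold changes of the members, cKO over control, at day 0, at day 3 and in cartilage (whole-number counts). Points are estimates, bars ± SE, and filled points have an adjusted p under 0.05; P4ha2 and P4ha3 lie left of 0 at day 0 and right of 0 at day 3, and Crtap is the one filled point in cartilage.

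Whether the genotype effect itself changed between the days was tested directly in a fit of all 14 culture samples. It was called for 4 of 10 members, 3 of them higher and 1 lower, against 16.8% of 14909 genes tested (9.94% higher and 6.89% lower). P4ha3 differed by 1.91 (SE 0.171, adjusted p 4.46e-05) and P4ha2 by 0.87 (SE 0.132, adjusted p 0.00104). Both calls were also made in each of the 14 fits without 1 library and with the replicate block. Serpinh1 differed by −0.63 (SE 0.187, adjusted p 0.0358) and Plod3 by 0.29 (SE 0.0922, adjusted p 0.0495). These last calls were not stable: with the replicate block their adjusted p was 0.0720 and 0.0731, and they were lost in 8 and 12 of the 14 fits without 1 library. With no filter on low counts the Plod3 call was also lost (0.29, adjusted p 0.0927). The Serpinh1 call was lost without any 1 of the 6 day 0 libraries or of control replicates 2 and 4 of day 3, and the Plod3 call held only without control replicate 1 or cKO replicate 4 of day 3. For the other 6 members the difference lay between −0.24 (Plod2, adjusted p 0.203) and 0.15 (P4hb, adjusted p 0.384).

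The change from day 0 to day 3 was then compared within each genotype. Time in culture, BMP2 and the table of counts all differed between the days, and their parts cannot be told apart. In control cultures 6 of 10 members were called, 2 higher and 4 lower (background 56.9% of 14909 genes, 28.1% higher and 28.8% lower). In cKO cultures it was also 6, with 2 higher and 4 lower (background 62.2%, 32.4% higher and 29.8% lower). The samples of the 2 days did not overlap for 6 members in control and 5 in cKO cultures, against 64% and 62.5% of all genes tested. Crtap rose in both genotypes, by 0.68 (SE 0.0625, adjusted p 1.75e-06) in control and by 0.49 (SE 0.0623, adjusted p 2.33e-05) in cKO cultures. Ppib, its partner in the complex, rose in control cultures (0.32, adjusted p 0.0123). In cKO cultures the value for Ppib was 0.14 (adjusted p 0.233), but 0.24 (adjusted p 0.00132) without cKO replicate 4.

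P4ha2 fell in both genotypes, by 1.32 (SE 0.0926, adjusted p 2.00e-07) in control and by 0.45 (SE 0.0923, adjusted p 9.22e-04) in cKO cultures. Its higher level in cKO cultures at day 3 thus went with a smaller fall and not with a rise over time. P4ha3 did rise over time in cKO cultures, by 1.81 (SE 0.126, adjusted p 1.84e-07), while in control cultures its log2 fold change was −0.097 (adjusted p 0.514). P4ha1 fell in both genotypes, by 0.40 and 0.35 (adjusted p 0.00561 and 0.0105). The cKO call of P4ha1 was lost without cKO replicate 2 of day 0 (adjusted p 0.0509). Serpinh1 fell in cKO cultures (log2 fold change −0.61, SE 0.131, adjusted p 0.00139), and its value in control cultures was 0.027 (adjusted p 0.883). Plod2 fell in cKO cultures (−0.33, adjusted p 0.00511), and its value in control cultures was −0.086 (adjusted p 0.426). In control cultures P4hb (−0.25, adjusted p 0.0138) and Plod3 (−0.28, adjusted p 0.00251) fell, and neither was called in cKO cultures (adjusted p 0.281 and 0.922). With the replicate block the P4hb call in controls was lost (adjusted p 0.0508). Plod1 was called in neither genotype (adjusted p 0.397 and 0.119), but was lower in cKO cultures without cKO replicate 4 (−0.24, adjusted p 0.0269) or with the replicate block (−0.24, adjusted p 0.0292).

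**Figure D3:**
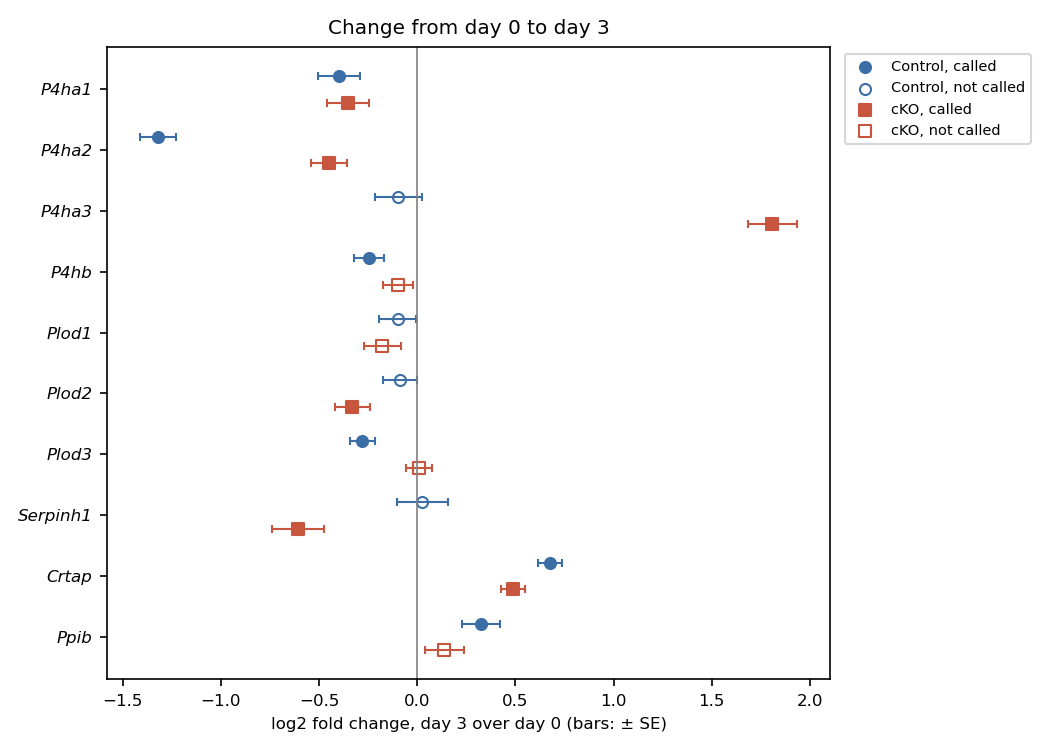
Log2 fold changes of the members from day 0 to day 3 in control and in cKO cultures, with bars of ± SE and filled points at an adjusted p under 0.05. P4ha3 stands at 1.81 in cKO and −0.097 in control cultures, P4ha2 at −0.45 and −1.32, and Crtap is right of 0 in both.

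The makeup of the enzyme families followed from these changes. P4ha1 held 69.3% ± 0.435 (SD, n = 3) of the summed CPM per kb of the 3 alpha subunits in control and 68.1% ± 0.395 in cKO cultures at day 0. At day 3 its share was 76.1% ± 0.962 in control and 59.7% ± 3.75 in cKO cultures (SD, n = 4 each). The share of P4ha3 was 7.93% ± 0.302 and 4.50% ± 0.696 at day 0 and 10.7% ± 1.73 and 17.7% ± 2.72 at day 3, in control and cKO cultures. Shares of P4ha2 were 22.7% ± 0.650 and 27.4% ± 0.960 at day 0, and 13.2% ± 1.39 and 22.6% ± 1.37 at day 3. Control and cKO samples did not overlap in any of these shares. Among lysyl hydroxylases Plod2 held 60.1% ± 0.260 in control and 58.6% ± 0.349 in cKO cultures at day 0, and 62.3% ± 1.84 and 53.6% ± 1.66 at day 3. P4ha1 and Plod2 had the highest share of their family in all 4 culture groups. These shares are descriptions and were not tested. They depend on the length used, that of all annotated exons of each gene joined.

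**Figure D4:**
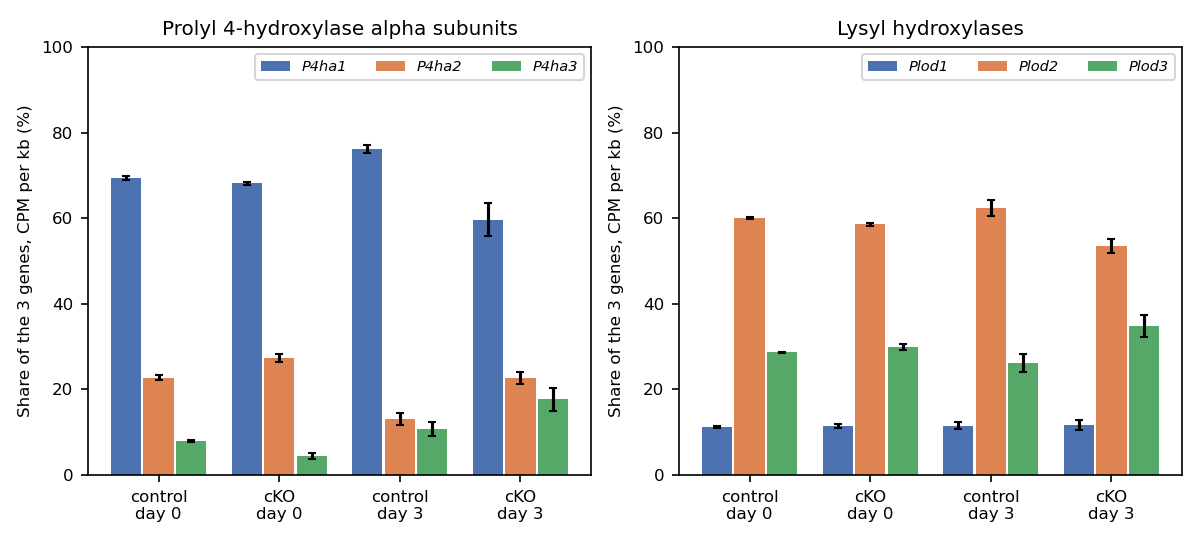
Share of each gene in the summed CPM per kb of exon of its family, for alpha subunits of prolyl 4-hydroxylase (left) and lysyl hydroxylases (right), in the 4 culture groups. Bars are means and whiskers SD over 3 samples at day 0 and 4 at day 3; the share of P4ha3 is 17.7% in cKO cultures at day 3 and 10.7% in control cultures.

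Transcript of the members was set beside that of collagens, their substrates. The 10 members summed to 10266 ± 82.4 CPM in control and 7270.4 ± 266.0 CPM in cKO cultures at day 0 (SD, n = 3 each), and to 9742 ± 877.8 and 5742 ± 547.6 CPM at day 3 (SD, n = 4 each). The 19 collagen genes of the lists below summed to 164931 ± 5162 and 67326 ± 6497 CPM at day 0, and to 123875 ± 6319 and 34532 ± 4236 CPM at day 3. For each 100 CPM of collagen transcript untreated control samples had 6.09 to 6.38 CPM of the members, and untreated cKO samples had 10.1 to 11.3. Most of the member sum in untreated controls came from Serpinh1 (mean 5103 CPM) and P4hb (mean 2091 CPM). After BMP2 the ratio ranged over 7.36 to 8.13 (control) and 16.3 to 17.5 (cKO). In cartilage it ranged over 3.34 to 3.91 and 4.37 to 6.34 with the whole-number counts, and over 3.83 to 4.46 and 4.83 to 7.33 with the estimated counts. In each setting all cKO samples had more member transcript per collagen transcript than all controls. The cartilage collagens made up most of the sum in control cultures: they went from 150267 to 55886 CPM at day 0 and from 103823 to 11516 CPM at day 3 (group means, control to cKO). At day 3 cKO replicate 4 had 2737 CPM of cartilage collagens, against 11556 to 16156 CPM in the other cKO samples. The interstitial collagens went from 14665 to 11440 CPM and from 20052 to 23016 CPM. These sums and ratios are descriptions and were not tested.

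Collagen genes differed by class. Of 8 cartilage collagens (Col2a1, Col10a1 and the type IX, XI and XXVII genes) all 8 fell at day 0 (median −2.10). At day 3, 7 fell and 1 rose, Col10a1 of hypertrophic chondrocytes (median −3.27). Of 11 interstitial collagens 7 fell and 1 rose at day 0 (median −0.37), while at day 3 3 rose and 0 fell (median 0.24). Those that rose at day 3 were Col5a2 (0.83), Col5a3 (0.80) and Col1a1 (0.77). The 3 of 11 stand beside 25.5% of all genes called higher at day 3. Over all genes, 31.6% were called lower and 33% higher at day 0, and 22.6% lower at day 3.

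Partners of the members in the same pathway were mostly lower. Over all genes tested, 31.6% were called lower and 33% higher at day 0, and 22.6% and 25.5% at day 3. Of 21 genes for collagen modification, folding and export, 17 fell and 2 rose at day 0 (median −0.65), and 16 fell and 2 rose at day 3 (median −0.53). Colgalt2, a collagen galactosyltransferase, fell at both days (log2 fold changes −1.81 and −3.48), and Creb3l1, a transcription factor of the secretory pathway, rose (0.66 and 0.72). P3h1, the enzyme of the complex with Crtap and Ppib, named here after its values were seen, fell by 1.07 at both days (adjusted p 3.94e-07 and 2.03e-04). Of 16 general ER folding genes tested, 12 fell and 2 rose at day 0 (median −0.28), and 11 fell and 0 rose at day 3 (median −0.42). Ppic, another cyclophilin, and Pdia4, a disulfide isomerase, had the largest falls of these at both days (−0.79 and −0.68 at day 0, −0.80 and −0.77 at day 3). Procollagen processing and crosslinking genes moved both ways: 8 of 12 fell and 4 rose at day 0, and 2 fell and 1 rose at day 3. The 12 of 12 called at day 0 stand beside 64.5% of all genes, and the 3 of 12 at day 3 beside 48.1%. Lox, the crosslinking oxidase, rose at both days (0.85 and 1.16), and Pcolce2, an enhancer of procollagen cleavage, fell at both (−1.53 and −3.39).

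Hypoxia-inducible genes were counted because P4ha1, P4ha2 and Plod2 are known targets of hypoxia-inducible factors. Of 18 genes, 12 fell and 3 rose at day 0 (median −0.45), while 8 rose and 1 fell at day 3 (median 0.39). The shares over all genes were 31.6% lower and 33% higher at day 0, and 22.6% and 25.5% at day 3. The largest falls at day 0 were those of Bnip3 (−1.49) and Pdk1 (−1.12), and the 1 fall at day 3 was that of Ndrg1 (−0.49). Egln3, an oxygen-sensing prolyl hydroxylase, rose at both days (0.95 and 3.17), and so did Adm (1.67 and 2.09). In cartilage, with the whole-number counts, 2 of the 15 tested fell and 0 rose, against 3.04% of all genes lower and 3.15% higher. P4ha1, P4ha2 and Plod2 were all lower in cKO cultures at day 0. In day 3 cultures P4ha2 was higher and P4ha1 and Plod2 were lower. A part of hypoxia-inducible factors in these differences was not tested. Among 8 other hydroxylases that use 2-oxoglutarate, as the collagen hydroxylases do, 1 rose and 2 fell at day 0, and 2 rose and 1 fell at day 3. Those that rose were Egln3 at day 0 and Egln1 and Egln3 at day 3, both also counted among the hypoxia-inducible genes. The 3 of 8 called on each day stand beside 64.5% of all genes called at day 0 and 48.1% at day 3.

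In cartilage tissue the question was whether the same genes differed in vivo. Crtap alone of the 9 members tested was called, against 6.19% of 8793 genes in either direction, 3.04% lower and 3.15% higher. It had 111.8, 104.9, 121.1 and 113.3 CPM in the 4 controls and 67.2, 73.5, 43.7 and 63.7 CPM in the 4 cKO samples. Every cKO sample was below every control sample (log2 fold change −0.87, SE 0.152, adjusted p 0.00230), and the call was made in all 8 fits without 1 library (−0.95 to −0.72). Crtap was thus called lower in all 3 genotype comparisons.

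The other 8 members tested had log2 fold changes from −0.31 (P4ha3, adjusted p 0.433) to 0.015 (Plod2, adjusted p 0.962), with a median of −0.24 over the 9, against 0.0084 over all genes. P4ha1 had 581.6, 533.3, 554.0 and 537.5 CPM in control and 497.9, 421.6, 446.0 and 478.9 CPM in cKO samples. These groups did not overlap, but P4ha1 was not called (−0.26, SE 0.124, adjusted p 0.240). P4ha2 (−0.24, adjusted p 0.299) also had groups that did not overlap, as did 13.5% of all genes tested. Serpinh1 had 2384 ± 169 CPM in control and 2107 ± 286 CPM in cKO cartilage (SD, n = 4 each; −0.18, SE 0.152, adjusted p 0.510). P4ha3 had 48.8, 70.0, 49.5 and 68.5 CPM in control and 29.4, 35.9, 78.5 and 53.4 CPM in cKO samples, a wide spread in which the highest sample was a cKO sample. The differences between cartilage and cultures were not tested. In the lists, 5 of 19 partner genes fell and 0 rose (P3h4 −0.65 and Kdelr2 −0.68 among them), 0 of 16 ER folding genes were called, and 2 of 8 cartilage collagens fell. Of all genes tested 6.19% were called, 3.04% lower. At an adjusted p under 0.05 with the estimated counts of the same samples, described next, 6 of the 8 cartilage collagens fell and 0 of 16 ER folding genes were called. With those counts 6.74% of all genes tested were called, 3.18% lower.

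Ppib could not be tested in cartilage with the whole-number counts. It had 3 to 11 counts per sample there, against 774 to 1940 in the second cartilage table, which holds estimated counts of the same samples. The whole-number value of Ppib was 0.279 to 0.904% of the estimated one. For Crtap it was 15.6 to 20.4%, and for the other 8 members 63.0 to 83.8%, against 57.8 to 73.0% for the library totals. So the whole-number table holds little of the transcript of Ppib and Crtap that the estimated table holds, and the cause was not tested. In the estimated counts Ppib had 663.4, 571.3, 654.4 and 633.2 CPM in control and 531.4, 472.2, 438.2 and 618.1 CPM in cKO samples (log2 fold change −0.29, SE 0.126, adjusted p 0.191), and the groups overlapped. Crtap had 356.4 ± 16.8 and 226.3 ± 32.6 CPM (SD, n = 4 each; −0.66, SE 0.125, adjusted p 0.00601), and its groups did not overlap. It was the 1 member called of 10 tested there, against 6.74% of 10872 genes (3.18% lower). P4ha1 and Crtap were the 2 members whose groups did not overlap there, against 14.6% of all genes. Direction and call of Crtap were therefore shared by both tables.

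**Figure D5:**
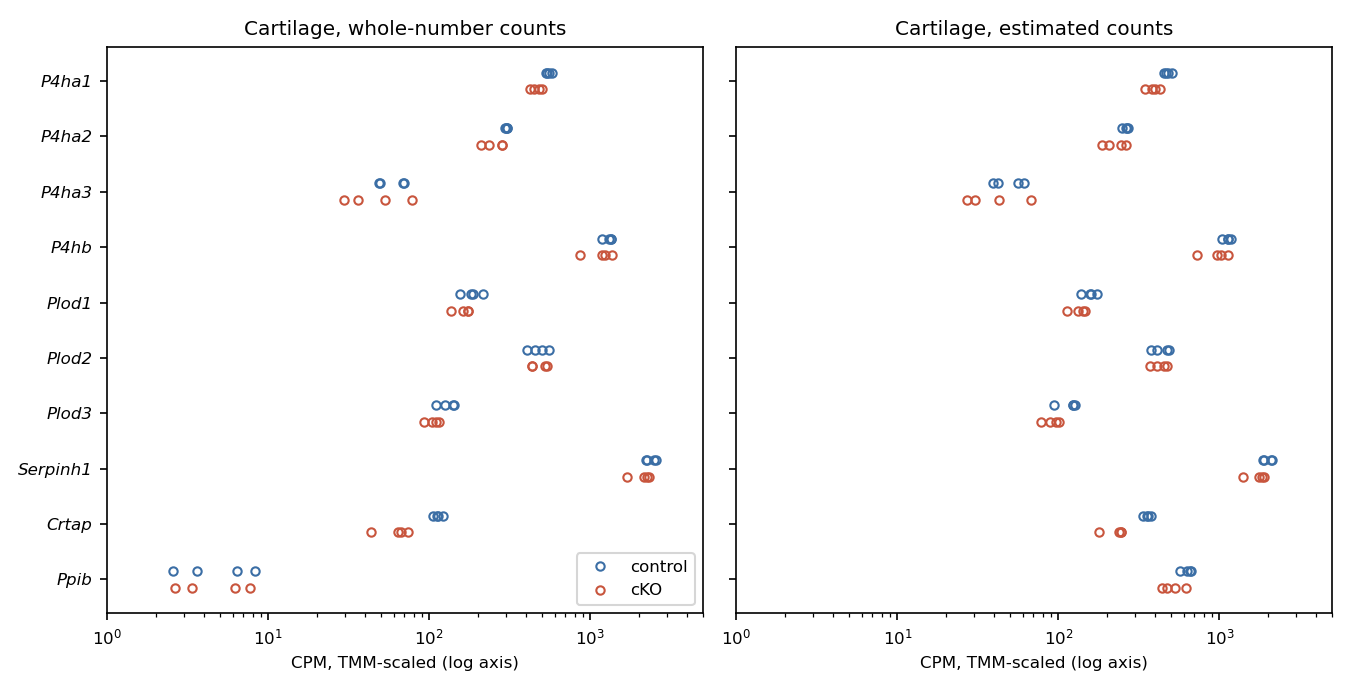
CPM of the members in the 8 cartilage samples on a log axis, from the whole-number counts (left) and the estimated counts (right) of the same samples. Each circle is a sample; Ppib lies under 10 CPM on the left and at 438.2 to 663.4 CPM on the right, and the cKO samples of Crtap are below the controls in both panels.

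The members' profiles over the 14 culture samples fell into several patterns. Log2 CPM of P4ha1 and P4hb, subunits of 1 enzyme, had a Pearson r of 0.949, and Plod1 and Plod2 one of 0.954. With its other alpha subunits P4hb had lower values, 0.224 for P4ha2 and 0.0546 for P4ha3. Its r was 0.913 with Plod2 and also with Plod3, which are not its subunits. Serpinh1 and Plod2 had 0.949, and Crtap and Ppib, partners in 1 complex, 0.933. P4ha2 and Crtap had −0.65, the lowest of all pairs. Among 9652 genes tested in the cultures at a mean log2 CPM of at least 3, the profile most like that of Crtap was Nbdy (r 0.992). For Serpinh1 it was Asrgl1 (0.993), for P4ha1 Angel2 (0.984), for P4ha2 Stbd1 (0.983) and for P4ha3 Marc2 (0.946). These values describe 14 samples from groups that differ in genotype, day and library depth. They thus reflect differences between the groups as well as within them, and carry no test.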

How the data were processed

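Gene expression was measured in 14 culture samples (stranded libraries from total RNA, per the labels' protocols) and 8 cartilage samples (BRB-seq, a barcoded 3′ method with unique molecular identifiers, per the labels' protocols). For the cultures the authors deposited estimated counts per gene, which were rounded to whole numbers here. For cartilage the authors deposited whole-number counts and, in a second table, estimated counts. Per the submitters' processing notes the cartilage samples were handled with UMI-tools 1.1.1, Trim Galore 0.6.7, HISAT2 2.2.1, featureCounts 2.0.1 and DESeq2 1.34.0. Which table each tool made is not given in the sources used here. They name the build GRCm38 for all samples. Culture genes were named from GENCODE M21, which matched 34582 of 34866 identifiers, and exon lengths and positions came from it. Promoter sequences are from RefSeq on GRCm38.p6.

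Tests were edgeR 4.0.16 quasi-likelihood tests in R 4.3.3 on all genes, with TMM scaling, filterByExpr (10 counts, 15 in total) and Benjamini-Hochberg adjustment. Every adjusted p is from this test unless another fit is named, and the threshold for a call was 0.05. Genotype effects were fitted on the samples of 1 setting, with sex as a covariate in cartilage. Changes between days and the difference of genotype effects came from 1 fit of the 14 cultures. The SE is the absolute log2 fold change over the square root of F. CPM were TMM-scaled over all 14 cultures or all 8 cartilage samples. The whole-number cartilage table was the main one, since the rule for the members names it, although the design had taken it to hold estimated counts, so the planned comparison of the 2 tables was run the other way round. Alternatives were DESeq2 1.42.0, RLE size factors, no filter, leaving out each library, a replicate block, all cultures in 1 fit, no sex covariate and, chosen after seeing the data, the estimated cartilage counts. The fitting code was tested on simulated data. Replicates differed by more than sampling noise (chi-square per degree of freedom 3.53 to 138.4), so each library counted as 1 sample. Culture samples are labelled as biological replicates. For cartilage the labels do not say that samples are separate mice, and p-values there measure only the spread between these samples. Named genes were the 10 members, Dnmt1, and called list genes with the largest changes. Members and lists were chosen with earlier results of these data known.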

Additional observations from a re-analysis of the deposited data

Results flagged for a closer look

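The genotype effect on P4ha3 differed between day 3 and day 0 by 1.91 on the log2 scale, and that on P4ha2 by 0.87. For both genes the direction turned from lower to higher in cKO cultures. The difference was −0.63 for Serpinh1 and 0.29 for Plod3, both close to the threshold.

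In the estimated cartilage counts, Plod3 in control replicate 1 had 93.4 CPM, against 123.3 to 127.3 CPM in the other 3 controls. Crtap in cKO replicate 3 had 177.8 CPM, against 236.4 to 246.4 CPM in the other 3 cKO samples. These were 2 of 60 groups of 4 samples in which 1 sample lay far from the others, and chance alone gives about 1 in 20.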

How the results depend on the processing

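Of 915 refits of a single member, 871 kept direction and side of the threshold. Under settings other than leaving out a library this held for 273 of 283, and DESeq2 and RLE size factors changed no member's call. The number of members called in the genotype comparisons was the same without any single library (10 at day 0, 9 at day 3, 1 in cartilage). For the difference between genotype effects it was 2 to 4 without 1 library and 2 with the replicate block, where Serpinh1 and Plod3 were lost. With no filter Plod3 was lost as well (adjusted p 0.0927). Among all genes, the count at day 0 was 10023, but 6260 with all 14 cultures in 1 fit. In cartilage it was 544, but 1044 with no filter and 362 to 630 without 1 library, lowest without cKO replicate 4. For the difference between genotype effects it was 2509, and 1591 to 4051 without 1 library. It was highest without cKO replicate 4 of day 3 and 1591 to 1668 without control replicates 2 or 3 or cKO replicate 3 of day 0. The causes were not tested.

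Values near 0 changed sign, none of them called. Plod2 in cartilage was 0.015, but −0.021 with no filter, −0.033 in the estimated counts, −0.032 there with the replicate block, and −0.080 to 0.087 without 1 library. The change of Plod3 in cKO cultures was 0.0080, but −0.00026 with no filter and −0.030 to 0.039 without 1 library. Without 1 library the change of Serpinh1 in control cultures was −0.040 to 0.11, and the difference of genotype effects of P4ha1 −0.052 to 0.13.

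No pairing by replicate number was seen between genotypes in the cultures. In cartilage, where the number also follows sex, the check left pairing open. Same-numbered samples had correlations of their deviations from −0.15 to −0.06 at day 3, −0.06 to 0.15 at day 0 and −0.08 to 0.26 in cartilage. Of 8 samples 5 correlated best with their own number in cartilage, 0 of 8 at day 3 and 2 of 6 at day 0. Beside the calls named above and in the report, the block changed no call of a member. In cartilage Ppib, at 3 to 11 whole-number counts against 774 to 1940 estimated counts, was below the filter, and the cause of this gap was not tested.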
